A study of Mus musculus with 6 samples.

Results

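The G1 cyclins and their kinases are 8 genes, found by name among the 53657 gene names counted in every sample: the D-type cyclins Ccnd1, Ccnd2 and Ccnd3, the E-type cyclins Ccne1 and Ccne2, and the kinases Cdk4, Cdk6 and Cdk2. They were read in tdTomato+ MCAM-bright undifferentiated spermatogonia (Aundiff), the testis population that holds the spermatogonial stem cells, sorted from adult mice 3 months after tamoxifen. The 3 WT samples came from mice with Gfra1-creERT2 and the tdTomato reporter, and the 3 MUT samples from mice that carried both of these and 1 inducible Hras G12V allele, so the controls also expressed Cre and received tamoxifen. Cre was driven by the Gfra1 promoter, so that recombination began in Gfra1-expressing germ cells, and MCAM is also found on somatic cells, which the tdTomato gate was meant to remove. The mice were of mixed genetic background, the labels do not say which samples were littermates, and the share of sorted cells that had recombined Hras is not analysed here.

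Cyclins are the regulatory subunits that switch on cyclin-dependent kinases. In G1, D-type cyclins bind CDK4 and CDK6 and E-type cyclins bind CDK2, and these kinases phosphorylate the retinoblastoma protein, which releases E2F transcription factors and lets the cell enter S phase. RAS signalling through the MAP kinases is a textbook inducer of Ccnd1, and Ccnd2 is known for its expression in spermatogonia.

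None of the 8 genes passed the test between MUT and WT at an FDR of 0.1. Cdk6 had the largest difference of the 8, with a mean of 85.1 ± 6.72 CPM in MUT and 67.8 ± 10.8 CPM in WT (SD, n = 3 each), a fold of 1.26. CPM is the count of a gene relative to its library's total, after TMM scaling. The fold changes of the other 7 were smaller, and their 95% intervals all lay within a 1.5-fold change in either direction. The order of the genes by level was led by Cdk4 and Ccnd2, in MUT and WT together.

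Libraries held between 22729292 and 23550433 counts, 3 counts corresponded to between 0.127 and 0.131 CPM, and the 8 genes together took between 0.0948% and 0.106% of a library. All 12 markers of undifferentiated spermatogonia were counted in every sample, with a summed level between 2472 and 3149 CPM. Macrophage markers summed to between 762 and 1432 CPM and markers of spermatocytes and spermatids to between 629 and 1373 CPM. Summed markers of Sertoli cells lay between 57.9 and 128.7 CPM, of Leydig cells between 12.9 and 67.3 CPM, of peritubular myoid cells between 7.91 and 12.8 CPM, of endothelial cells between 43.8 and 58.3 CPM, and of B and plasma cells between 5.98 and 75.2 CPM. WT replicate 3 stood apart, with the highest macrophage and spermatid sums and the lowest sum for undifferentiated spermatogonia. Hras itself, whose counts do not separate the alleles, had levels of 56.8, 60.1 and 65.2 CPM in WT replicates 1 to 3 and 69.9, 69.1 and 61.0 CPM in MUT replicates 1 to 3. The groups overlapped, at a log2 fold change of 0.14 with a standard error of 0.083 (adjusted p = 0.998, edgeR with Benjamini-Hochberg adjustment), and at 0.08 without WT replicate 1.

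The D-type cyclins and the kinases are families of related sequences, and the coding sequences below show how far family members differ in the stretches that define them. For the D-type cyclins they are the first bases of the coding sequence, in which capitals mark the codons of the LxCxE motif that contacts the retinoblastoma protein. The motif falls in codons 5 to 9 of Ccnd1 (chr7:144939634-144939693, minus strand) and in codons 3 to 7 of both Ccnd2 (chr6:127150714-127150773, minus strand) and Ccnd3 (chr17:47593655-47593714, plus strand), in GRCm38. These coordinates are those of the 60 printed bases, not of the motif alone.
Ccnd1: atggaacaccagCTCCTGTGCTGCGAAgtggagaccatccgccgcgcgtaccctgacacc
Ccnd2: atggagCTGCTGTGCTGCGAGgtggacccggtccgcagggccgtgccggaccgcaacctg
Ccnd3: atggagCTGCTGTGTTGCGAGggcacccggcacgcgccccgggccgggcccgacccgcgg

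For the kinases the stretch is the helix that contacts the cyclin, named after the PSTAIRE residues of CDK2, with its codons in capitals. It covers codons 45 to 51 of Cdk2 (chr10:128703949-128704713, minus strand, read across an intron), codons 50 to 56 of Cdk4 (chr10:127064365-127064421, plus strand) and codons 55 to 61 of Cdk6 (chr5:3344511-3344567, plus strand). These coordinates run from the first to the last of the 57 printed bases, not over the helix codons alone.
Cdk2: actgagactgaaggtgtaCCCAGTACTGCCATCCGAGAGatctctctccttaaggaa
Cdk4: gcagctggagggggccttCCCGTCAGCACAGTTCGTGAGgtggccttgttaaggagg
Cdk6: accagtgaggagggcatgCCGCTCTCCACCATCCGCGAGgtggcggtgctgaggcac

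The longest run of identical coding bases between any pair within a family was 20 bases. It was found both between Ccnd1 and Ccnd2, in the run ttcaagtgcgtgcagaagga, and between Cdk4 and Cdk6, in the run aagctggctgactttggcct. No stretch of 50 bases, the length of a read, was shared between any of the 8 genes, so no read could match more than 1 of them exactly. Overlap with neighbouring genes was a larger limit than sharing among the 8. Of the exon bases, 23.4% of Ccnd1 (shared with Oraov1), 19.7% of Cdk4 (with Tspan31) and 17.4% of Ccne2 (with Ints8) also belong to exons of another gene, and fragments there were left out of the counts. The share was 7.86% for Ccnd2, 4.11% for Ccnd3, 2.63% for Cdk6, 0.547% for Cdk2 and 0 for Ccne1. The counting disregarded strand, so an overlap on the opposite strand cost counts as well. Stretches of 50 bases were also shared with genes outside the 8, neighbours included. They made up 3.32% of those of Cdk6 (425 other genes), 17.0% of Cdk4 (67) and 5.39% of Ccnd3 (46). Fragments that mapped to more than 1 place were not counted either.

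The levels of the 8 genes were compared per kb of exon. Cdk4, which pairs with D-type cyclins, had the highest level, at 59.2 CPM per kb as the mean of all 6 samples, with a range from 56.7 to 64.5. Ccnd2 was second, at 35.3 CPM per kb, ranging from 28.3 to 41.0. Cdk2, the partner of the E-type cyclins, followed at 22.9 CPM per kb and Ccnd1 at 22.7 CPM per kb, and their ranges overlapped. Below them came Ccne2 at 12.3 CPM per kb, Ccne1 at 10.7 and Ccnd3 at 9.28. The ranges of Ccne2 and Ccne1 overlapped, as did those of Ccne1 and Ccnd3. Cdk6 was the lowest of the 8, at 5.46 CPM per kb with a range from 4.03 to 6.60. Among all tested genes, Cdk4 stood at the 96.5th percentile of level per kb and Cdk6 at the 56.7th.

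That order depended on the length used. The exon length joins all annotated transcripts of a gene, and so holds untranslated and alternative exons that may not be used in these cells. The exons of Cdk6 cover 13989 bases with a coding sequence of 978, and those of Ccne1 cover 2662 bases with a coding sequence of 1224. The Ccnd3 transcript whose coding sequence was used is 2113 bases long, against 8775 exon bases in all. Per kb of coding sequence Ccnd2 came first, at 383 CPM per kb, and Cdk4 second, at 212 CPM per kb. On that scale Cdk6, at 78.2 CPM per kb, stood above Ccne2 at 35.5 and Ccne1 at 23.3. With the exon bases shared with other genes removed from the length, Ccnd1 was at 29.6 CPM per kb and stood above Cdk2 at 23.0. Cdk4 and Ccnd2 held the first and second places under each of the 3 lengths, in changing order.

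**Figure D1:**
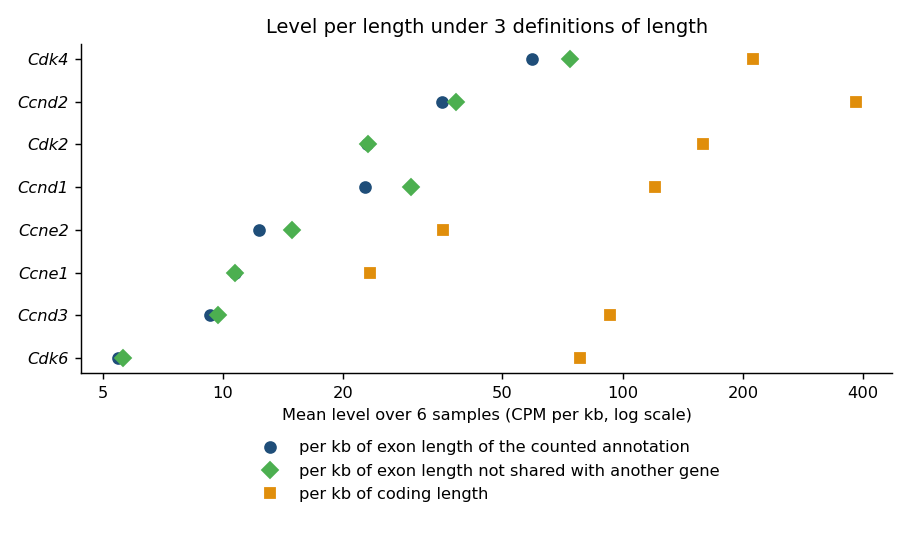
The horizontal axis gives the mean level over 6 samples in CPM per kb on a log scale, for each of the 8 genes, with length taken as all exon bases (circles), exon bases not shared with another gene (diamonds) or coding bases (squares). Cdk6 lies lowest at 5.46 CPM per kb of exon, but at 78.2 CPM per kb of coding sequence it lies above Ccne1 and Ccne2.

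Ccnd1, the D-type cyclin best known as a RAS target, had levels of 97.8, 116.0 and 90.6 CPM in WT replicates 1 to 3. In MUT replicates 1 to 3 its levels were 116.7, 116.7 and 103.2 CPM. MUT replicate 3 lay between the WT samples, so the groups overlapped. In edgeR's quasi-likelihood test the log2 fold change of Ccnd1 was 0.15 (standard error 0.10, 95% interval from -0.08 to 0.38). Its adjusted p, by Benjamini-Hochberg over all genes that edgeR tested, was 0.998, and the other 7 genes had the same adjusted p. The log2 fold change of Ccnd1 was 0.07 without WT replicate 3 and 0.24 without WT replicate 2. In the latter fit 654 of 20209 tested genes had an unadjusted p under 0.05 in edgeR. Of the 8 only Ccnd1 was among them, with a Benjamini-Hochberg adjusted p of 0.998 in that fit.

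Ccnd2 had 359, 331 and 267 CPM in WT replicates 1 to 3 and 385, 322 and 327 CPM in MUT replicates 1 to 3. WT replicate 3 was the lowest and MUT replicate 1 the highest, with the other 4 samples in between and intermixed. Ccnd2 had a log2 fold change of 0.11 (standard error 0.12, 95% interval from -0.17 to 0.39), and it was -0.0033 when WT replicate 3 was left out, 0.02 without MUT replicate 1 and 0.20 without WT replicate 1. The sign of the Ccnd2 difference changed only without WT replicate 3. The values without WT replicate 3 and without MUT replicate 1 were both small beside the standard error of 0.12.

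Ccnd3 had 84.0, 80.9 and 82.9 CPM in WT and 80.8, 79.3 and 80.9 CPM in MUT, in the order of the replicate numbers. Every MUT sample lay below every WT sample, by a narrow margin. The exact permutation test, two-sided, gave p = 0.1, which is the lowest p that 3 samples against 3 allow. At -0.04 (standard error 0.059, 95% interval from -0.17 to 0.09), its log2 fold change was the only negative one among the 8, and it was -0.07 without WT replicate 2. Across all tested genes, 3% had every MUT sample below every WT sample. Ccnd3 was also the steadiest of the 8, with a coefficient of variation of 1.87% in WT and 1.14% in MUT, against 2.30% from counting error alone. For Ccnd2 the same coefficient was 14.9% in WT and 10.2% in MUT, against 1.14% from counting error.

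Per kb of exon, Ccnd2 made up 52.1% ± 3.18 of the summed D-type cyclin level in WT and 52.6% ± 2.18 in MUT (SD, n = 3 each). Ccnd1 contributed 33.2% ± 2.71 in WT and 34.3% ± 1.89 in MUT, and Ccnd3 14.6% ± 1.71 in WT and 13.2% ± 0.860 in MUT (SD, n = 3 each). The groups overlapped for each of the 3 shares. Per kb of coding sequence the mean share of Ccnd2 was 63.6% in WT and 64.4% in MUT.

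**Figure D2:**
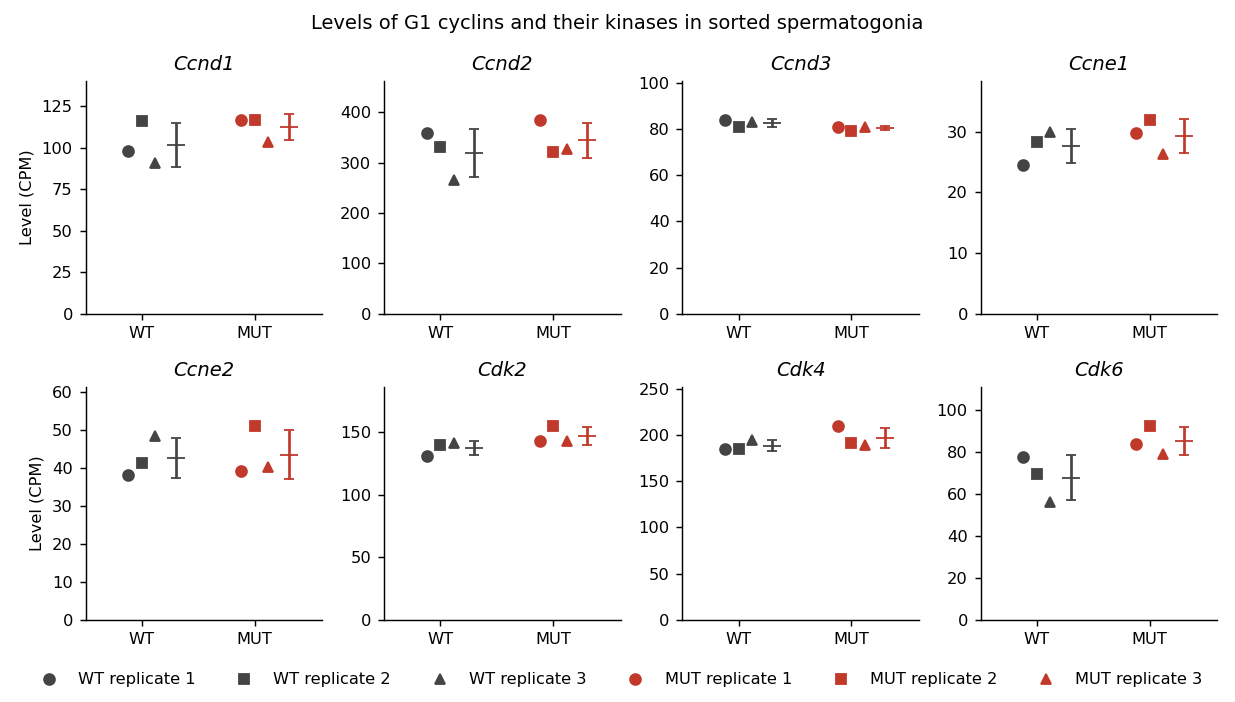
Each panel plots the level of 1 gene in CPM on an axis that starts at 0, with 1 point per sample (marker shape gives the replicate number) and, to the right of each group, its mean and SD (n = 3). The groups are separate for Ccnd3 (MUT below WT) and for Cdk2 and Cdk6 (MUT above WT), and overlap for the other 5 genes. Among all tested genes, MUT lay wholly above WT for 4.69% and wholly below for 3%.

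The E-type cyclins activate CDK2 late in G1. Ccne1 had 24.6, 28.3 and 30.0 CPM in WT replicates 1 to 3 and 29.7, 32.0 and 26.3 CPM in MUT replicates 1 to 3. Ccne2 had 38.2, 41.2 and 48.4 CPM in WT and 39.2, 51.0 and 40.2 CPM in MUT, in the same order. For both genes the samples of the groups were intermixed, and WT replicate 1 was the lowest of the 6. The log2 fold change was 0.09 for Ccne1 (standard error 0.11, 95% interval from -0.17 to 0.34) and 0.03 for Ccne2 (standard error 0.13, 95% interval from -0.26 to 0.32). Leaving out 1 sample moved them to between -0.00015 (without WT replicate 1) and 0.16 (without MUT replicate 3) for Ccne1 and to between -0.12 (without MUT replicate 2) and 0.13 (without WT replicate 3) for Ccne2. These 2 genes had the fewest counts of the 8, from 562 to 737 for Ccne1 and from 874 to 1175 for Ccne2. Ccne1 made up 46.0% ± 1.30 of their summed level per kb of exon in WT and 47.1% ± 2.49 in MUT (SD, n = 3 each).

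Cdk4, the kinase with the highest level, had 184.9, 184.3 and 195.0 CPM in WT replicates 1 to 3. Its levels were 209.7, 191.4 and 189.5 CPM in MUT replicates 1 to 3. MUT replicate 1 stood above the other 5 samples, among which the groups overlapped. Cdk4 had a log2 fold change of 0.07 (standard error 0.070, 95% interval from -0.09 to 0.23), which was 0.0115 without MUT replicate 1 and 0.04 without WT replicate 2.

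Cdk2 had 131, 140 and 141 CPM in WT and 143, 155 and 143 CPM in MUT, in the order of the replicate numbers. Every MUT sample lay above every WT sample, as for 4.69% of all tested genes. The closest pair was WT replicate 3 at 141.2 CPM and MUT replicate 3 at 143.1 CPM (two-sided exact permutation p = 0.1). The Cdk2 log2 fold change of 0.10 (standard error 0.067, 95% interval from -0.05 to 0.25) did not pass the edgeR test. It was 0.05 without MUT replicate 2 and 0.06 without WT replicate 1.

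Cdk6 had 77.7, 69.2 and 56.3 CPM in WT replicates 1 to 3 and 84.0, 92.3 and 79.0 CPM in MUT replicates 1 to 3. Every MUT sample lay above every WT sample, as for 4.69% of all tested genes. The narrowest gap was from WT replicate 1 to MUT replicate 3, and WT replicate 3 was the lowest (two-sided exact permutation p = 0.1). The Cdk6 log2 fold change was 0.33, with a standard error of 0.12 and a 95% interval from 0.06 to 0.60. The unadjusted p from edgeR was 0.0222, and the Benjamini-Hochberg adjusted p was 0.998. With the replicate number entered as a block in edgeR, the difference was 0.34 on the log2 scale (standard error 0.089, 95% interval from 0.14 to 0.53) and the adjusted p from edgeR was 0.297. It was 0.21 without WT replicate 3, and from 0.21 to 0.43 over the 6 fits that each left out 1 sample. Without WT replicate 2, MUT replicate 1 or MUT replicate 2 the unadjusted p from edgeR was 0.0540, 0.0516 and 0.102, respectively.

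Summed markers of other cell states differed between the same samples. The 5 markers of differentiating spermatogonia summed to 607, 672 and 646 CPM in WT replicates 1 to 3 and to 714, 846 and 697 CPM in MUT replicates 1 to 3, so that all MUT samples exceeded all WT samples, as for Cdk6. Of the 5, Stra8 and Sohlh2 had every MUT sample above every WT sample, as had 4.69% of all tested genes. Kit, Sohlh1 and Dmrtb1 overlapped, and none of the 5 was at 0 in any sample. MUT replicate 2 had the highest value both of this sum and of Cdk6, but within WT the orders differed, since replicate 1 had the lowest sum and the highest Cdk6 level. The macrophage sum was 962, 863 and 1432 CPM in WT and 762, 903 and 958 CPM in MUT, highest in WT replicate 3, where Cdk6 was lowest, and none of the 7 macrophage markers was at 0. The 7 markers of spermatocytes and spermatids summed to 1059, 823 and 1373 CPM in WT and 629, 654 and 1047 CPM in MUT, and the 6 markers of B and plasma cells to 15.4, 46.5 and 75.2 CPM in WT and 6.82, 5.98 and 18.9 CPM in MUT. Both sums were lower in MUT in every pair of equal replicate number, although the groups overlapped, and no marker of either list was at 0. Prm1, Prm2 and Tnp1 held most of the spermatocyte and spermatid sum in each sample, with log2 fold changes of -0.62, -0.56 and -0.59. Changes were smaller for Acrv1 (-0.22), Spo11 (-0.18), Hormad1 (-0.04) and Sycp3 (-0.0069), all from the fit without the block. With the replicate block, Jchain, an antibody chain gene of plasma cells, fell by 2.86 on the log2 scale (adjusted p = 0.0257, edgeR with Benjamini-Hochberg adjustment). Tnp1, a spermatid gene, fell by 0.63 in that fit (adjusted p = 0.0794, edgeR with the same adjustment), and neither passed without the block (adjusted p = 0.998). The part of these markers in the Cdk6 difference was not tested. In RNA from bulk sorted cells, fewer cells of a type cannot be told apart from less RNA per cell.

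Among the 3 kinases, Cdk6 contributed 5.72% ± 1.01 of the summed level per kb of exon in WT and 6.73% ± 0.488 in MUT (SD, n = 3 each). Cdk4 contributed 68.2% ± 0.901 in WT and 67.0% ± 1.91 in MUT, and Cdk2 26.1% ± 0.762 in WT and 26.2% ± 1.49 in MUT (SD, n = 3 each). The groups overlapped for each share. The summed kinase level was 83.5, 84.2 and 86.7 CPM per kb in WT and 93.6, 90.5 and 87.0 CPM per kb in MUT, so that every MUT sample lay above every WT sample, the lowest MUT sample only just. The summed levels of the D-type cyclins, from 57.0 to 74.9 CPM per kb, and of the E-type cyclins, from 20.2 to 26.6 CPM per kb, overlapped between the groups.

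Set against all 19656 tested genes, the counts were as follows. At an FDR of 0.1 edgeR called 0 of the 8, and 2 of all tested genes (0.0102%), both lower in MUT. With the replicate block it called 0 of the 8 and 0.0661% of all tested genes, and DESeq2 called 0 of the 8 and 0.0241% of the 37271 genes it tested. At an unadjusted p under 0.05, edgeR had 1 of the 8 higher in MUT (Cdk6) and none lower, where 1.34% of all tested genes were higher and 1.44% lower. The same held with the block, where 1.89% of all tested genes were higher. The MUT samples lay wholly above the WT samples for 2 of the 8 (Cdk2 and Cdk6), against 4.69% of all tested genes. They lay wholly below for 1 of the 8 (Ccnd3), against 3% of all tested genes. The 95% interval lay within a 1.5-fold change for 7 of the 8, Cdk6 being the exception, against 59.1% of all tested genes. That background was not matched for level, and the 8 genes had between 562 and 8816 counts in a sample. Of the 55 genes in the 5 lists described below, 50 had such an interval. The median log2 fold change of the 8 was 0.09, with 7 positive and 1 negative, and that of all tested genes was 0.0066, with 10191 positive and 9465 negative.

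**Figure D3:**
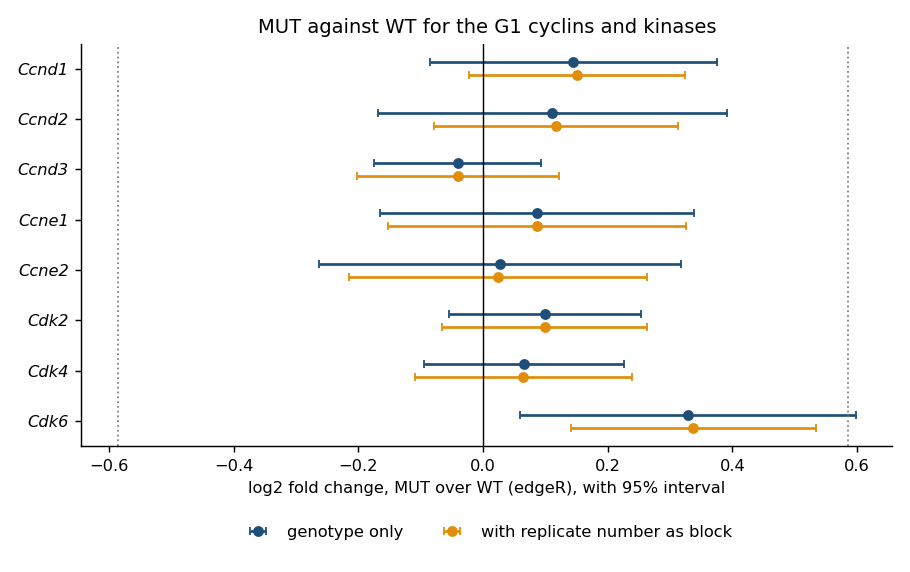
The horizontal axis gives the log2 fold change of MUT over WT from edgeR for each of the 8 genes, with bars for the 95% interval, from the fit with genotype only (blue) and with the replicate number as block (orange), and dotted lines at a 1.5-fold change. The interval lies above 0 in both fits for Cdk6, at 0.33 and 0.34, and includes 0 in both fits for the other 7 genes.

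The genes whose pattern over the 6 samples was most like that of Cdk6 were Bcorl1, Syde2, Map3k9, Adamts7 and Elf4. Likeness was measured as the root mean square distance between centred log2 CPM values, over 10575 genes of at least 10 CPM. The distance was 0.0599 for Bcorl1 and 0.0632 for Elf4, the nearest and the farthest of the 5, where the root mean square spread of Cdk6 itself was 0.226. All 5 were lowest in WT replicate 3, which their choice by likeness to Cdk6 over these same samples favours. Bcorl1, which encodes a BCL6 corepressor-like protein, had 93.8, 90.9 and 72.7 CPM in WT replicates 1 to 3 and 109.7, 109.5 and 103.6 CPM in MUT replicates 1 to 3. None of the 5 passed the test between MUT and WT (adjusted p = 0.998 for each, edgeR with Benjamini-Hochberg adjustment).

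**Figure D4:**
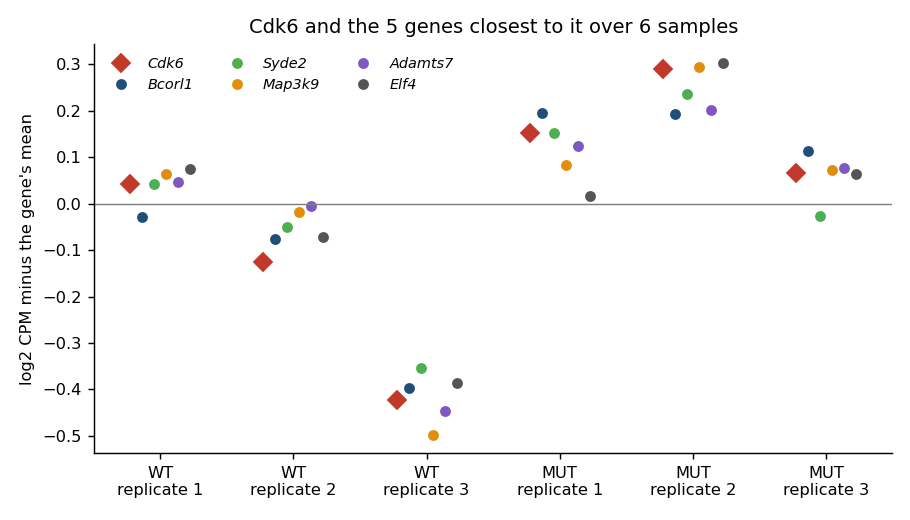
The vertical axis gives log2 CPM minus the mean of the gene over all 6 samples, for Cdk6 (diamonds) and the 5 genes closest to it (circles), by sample. All 6 genes are lowest in WT replicate 3, where Cdk6 is at -0.42, and the 5 were chosen for likeness to Cdk6 over these same samples.

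The genes around the G1 cyclins and kinases were described in 5 lists with 55 genes in all, every one of which was tested. None passed an FDR of 0.1 in edgeR, with or without the block, or in DESeq2. Without the block none had an unadjusted p under 0.05 in edgeR. With the block 2 of the 55 did, both lower in MUT, namely Rb1 at a log2 fold change of -0.23 (standard error 0.098) and Rbl2 at -0.32 (standard error 0.14), where 4.71% of all tested genes were lower at that p. The MUT samples lay wholly above the WT samples for 2 of the 55 (E2f8 and Cul1), against 4.69% of all tested genes. They lay wholly below for 1 of the 55 (Tyms), against 3% of all tested genes. The median log2 fold change of the 55 was 0.03, with 35 positive and 20 negative.

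The retinoblastoma family and the E2F factors, the substrates and effectors of the G1 kinases, had a median log2 fold change of 0.04 over 13 genes, 9 of them positive. E2f8, an atypical E2F that represses transcription, had the smallest p of this list. Its levels were 22.0, 21.5 and 19.0 CPM in WT replicates 1 to 3 and 25.1, 25.0 and 22.0 CPM in MUT replicates 1 to 3. The difference was 0.21 on the log2 scale with a standard error of 0.10 (adjusted p = 0.998, edgeR with Benjamini-Hochberg adjustment). Tfdp1, the dimerization partner of E2F, had the highest level of the list at 52.8 CPM per kb, and Rbl2, a relative of the retinoblastoma gene, the lowest at 1.65 CPM per kb.

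The CDK inhibitors, which hold the G1 kinases in check, had a median log2 fold change of -0.05 over 7 genes, 5 of them negative. Cdkn1a, which encodes p21, had the smallest p of the list, with 15.6, 18.8 and 23.4 CPM in WT replicates 1 to 3 and 15.8, 17.7 and 14.8 CPM in MUT replicates 1 to 3. Its groups overlapped, with a log2 fold change of -0.26 and a standard error of 0.16 (adjusted p = 0.998, edgeR with Benjamini-Hochberg adjustment). It was -0.10 without WT replicate 3 and -0.40 without WT replicate 1. Cdkn2a, which encodes an inhibitor of CDK4 and CDK6 and, in another frame, ARF, had the highest level at 58.7 CPM per kb of exon. That was close to the level of Cdk4 per kb of exon, and the other lengths were not used for Cdkn2a. Cdkn2b, also an inhibitor of CDK4 and CDK6, had the lowest level, at 3.13 CPM per kb.

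The genes that regulate the kinases by phosphorylation (Wee1, which inhibits them, included) or mark cyclins and CDK inhibitors for degradation had a median log2 fold change of 0.02 over 14 genes, 8 of them positive. Cdc25a, the phosphatase that removes inhibitory phosphates from CDK2, had the smallest p, with 106.5, 110.9 and 103.3 CPM in WT replicates 1 to 3 and 118.8, 123.1 and 110.6 CPM in MUT replicates 1 to 3. MUT replicate 3 lay just under WT replicate 2, and the log2 fold change was 0.14 (standard error 0.068), or 0.09 without MUT replicate 2. The highest level per kb of exon was that of Skp1a, a subunit of the SCF ubiquitin ligase, at 149.9 CPM per kb, and the lowest that of Fbxo4, an F-box protein, at 0.957 CPM per kb.

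The genes that E2F switches on for DNA replication had a median log2 fold change of 0.08 over 15 genes, 12 of them positive. Mcm2, a subunit of the replicative helicase, had the smallest p, with 406, 434 and 386 CPM in WT replicates 1 to 3 and 459, 472 and 428 CPM in MUT replicates 1 to 3. WT replicate 2 lay above MUT replicate 3, and the log2 fold change was 0.15 (standard error 0.080). The 95% interval lay within a 1.5-fold change for all 15 genes of this list. Mcm3, of the same helicase, had the highest level at 80.6 CPM per kb, and Pola1, the catalytic subunit of DNA polymerase alpha, the lowest at 5.51 CPM per kb.

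The S phase and mitotic genes had a median log2 fold change of 0.0085 over 6 genes, 4 of them positive. Mki67, which encodes the proliferation marker Ki-67, had the smallest p, with 434, 493 and 355 CPM in WT replicates 1 to 3 and 465, 497 and 466 CPM in MUT replicates 1 to 3. WT replicate 3 was the lowest, and the log2 fold change was 0.16 (standard error 0.12). It was 0.04 without WT replicate 3 and 0.26 without WT replicate 2. Ccnb2, a mitotic cyclin, had the highest level at 48.3 CPM per kb and Ccna1, the germ line cyclin of meiosis, the lowest at 2.48 CPM per kb.

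**Figure D5:**
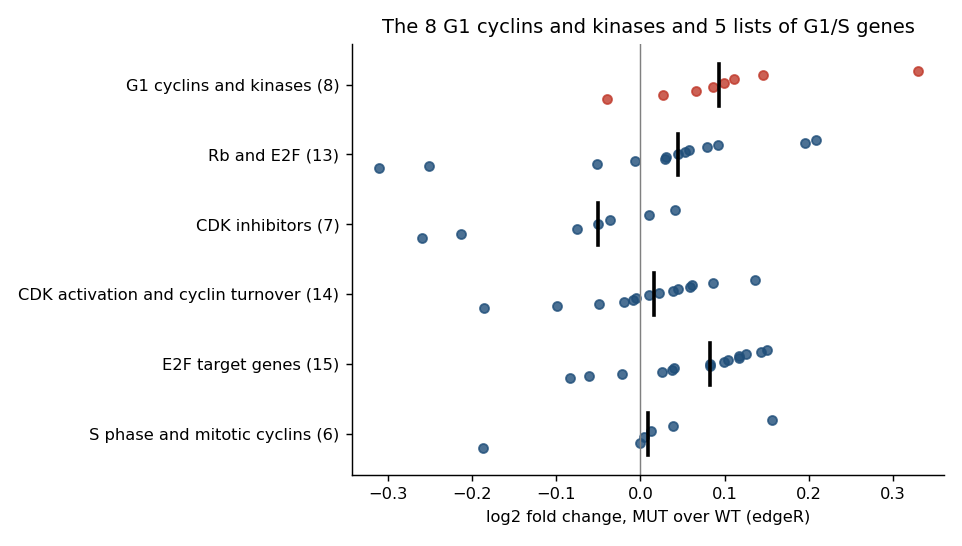
The horizontal axis gives the log2 fold change of MUT over WT from edgeR, with 1 point per gene and a bar at the median of each list, and the number of genes in brackets. The medians run from -0.05 for the CDK inhibitors to 0.09 for the 8 G1 cyclins and kinases, and no gene shown passed an FDR of 0.1.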

How the data were processed

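RNA from 3 WT and 3 MUT samples was made into stranded mRNA libraries and sequenced from both ends. The deposited values are unnormalized fragment counts for each gene name, which the authors made with featureCounts 1.6.2 (per the file headers) on GENCODE vM17 exons with tdTomato added, unstranded, without multi-mapping or ambiguous fragments. The submitters' processing notes name STAR and GRCm38.p6, and the version of STAR is not given in the sources used here.

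Counts were joined by gene name and grouped by the sample titles. In R 4.3.3, edgeR 4.0.16 scaled them by TMM, kept genes with filterByExpr and compared MUT with WT by its quasi-likelihood test with Benjamini-Hochberg adjustment over 19656 genes at an FDR of 0.1. Standard errors came from the fold change and its F statistic. DESeq2 1.42.0, limma 3.58.1 voom, other size factors and filters, a replicate block and leaving out each sample were alternatives. The script was tested on simulated counts with 200 changed genes. Levels per kb used the exon length in the files, and coding sequences came from GENCODE vM21 on the same build.

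The G1 cyclins and kinases, the 5 lists and the markers were chosen with earlier results of these data known. In each list the genes named were any called, the one with the smallest p, and those with the highest and lowest level per kb. Genes like Cdk6 were ranked by the root mean square distance of centred log2 CPM with a prior count of 2. Same-numbered WT and MUT samples deviated together from their group means (correlations of 0.304, 0.156 and 0.395 over 10583 genes above 10 CPM), and the numbers come from the sample titles. Samples of unlike number were not compared in this way, so the correlations do not show that equal numbers mark paired mice. The controls were littermates, but which mice were paired is not stated. The p-values without the block treat the samples as independent, and those with it assume a pairing by number that is not established. Both rest on the spread between these samples. Replicates of a group differed beyond counting error. Depth floors cover counting error only.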

Additional observations from a re-analysis of the deposited data

How the results depend on the processing

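None of the 8 G1 cyclins and kinases and none of the 55 genes in the lists was called under any alternative run. Of 104 alternative log2 fold changes of the 8 genes, 99 kept their sign. The 5 that did not came from leaving out a sample: -0.0033 for Ccnd2 without WT replicate 3, -0.00015 for Ccne1 without WT replicate 1, and for Ccne2 -0.05 without WT replicate 1, -0.0077 without WT replicate 2 and -0.12 without MUT replicate 2. Over the fits that left out 1 sample, the highest values were 0.20 for Ccnd2, 0.16 for Ccne1 and 0.13 for Ccne2.

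Of all tested genes, edgeR called 2, and the count was 9 with DESeq2, 4 with limma voom, 5 with no filter, 0 with at least 10 counts in every sample (479 at an unadjusted p under 0.05) and 1 at an FDR of 0.05. With a replicate block edgeR called 13, and DESeq2 called 55 of the 17045 genes it then adjusted over, against 9 of 37271 without it, so that the tested set changed too. The replicate block changed no call among the 8 genes or the 55, and among the markers it added Jchain and Tnp1 in edgeR. Leaving out a sample gave 0 to 6, with 5 without WT replicate 3, 6 without MUT replicate 3, 1 without MUT replicate 1 and 0 without MUT replicate 2 (292 at an unadjusted p under 0.05). The cause was not tested.

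Coding length and unshared exon length were chosen after seeing the data. Per kb of coding sequence, levels were 120.7 CPM for Ccnd1, 382.8 for Ccnd2, 93.0 for Ccnd3, 23.3 for Ccne1, 35.5 for Ccne2, 159 for Cdk2, 212 for Cdk4 and 78.2 for Cdk6. Per kb of unshared exon they were 29.6 for Ccnd1, 9.68 for Ccnd3, 14.9 for Ccne2 and 73.8 for Cdk4. Coding length gave shares in WT and MUT of 19.9% and 20.6% for Ccnd1, 63.6% and 64.4% for Ccnd2, 16.5% and 14.9% for Ccnd3, 39.1% and 40.2% for Ccne1, 60.9% and 59.8% for Ccne2, 35.8% and 35.2% for Cdk2, 48.1% and 46.2% for Cdk4, and 16.1% and 18.6% for Cdk6. The changed length is the only change there. Coding length from a protein table was not run.

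With 3 samples a group, an exact permutation test cannot go below p = 0.1, and the levels of the 8 genes were far above the floor of 3 counts.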
